A study of Mus musculus with 6 samples.

Results

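Of the 21853 genes in the deposited table, 10 were Kruppel-like factors (KLF) taken here by their symbols: Klf2, Klf4, Klf5, Klf6, Klf7, Klf9, Klf10, Klf11, Klf13 and Klf15. The table held 17 Klf genes in all, and the other 7 are used beside them. They were measured in MEF, fibroblasts cultured from mouse embryos, of the C57BL/6J strain and with a labelled age of 12 days. In both groups xCT, the cystine transporter subunit encoded by Slc7a11, had been knocked out. Water was given to 3 control samples and red clover extract (RCE) to 3 others. The sources used here give no dose, exposure time or medium, nor whether the cells came from 1 clone or several embryos. Whether the 3 samples of a group were grown separately is not labelled either, so p-values here reflect only how these libraries vary, possibly for technical reasons.

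KLFs are transcription factors with 3 zinc fingers at the C-terminus that bind GC boxes and CACCC elements, the same kind of site that the related Sp factors bind. Their N-terminal parts differ and recruit different partners. Klf9, Klf10, Klf11, Klf13 and Klf16 bind the corepressor Sin3, Klf3, Klf8 and Klf12 bind the corepressor CtBP, and Klf2, Klf4, Klf5, Klf6 and Klf7 act mostly as activators. Several are induced quickly by growth factors, TGF-beta or steroid hormones, and in fibroblasts members of the family are known for parts in growth arrest, wound response and matrix production.

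Each level below is in FPKM, a fragment number divided by transcript length and library depth, so levels of different genes can be set side by side. Library depth, read from the spacing of low values, was 45600000 to 58900000 fragments. Slc7a11 lay between 0.007 and 0.037 FPKM in all 6 libraries. All 12 fibroblast markers had a mean of at least 1 FPKM, led by Fn1 (mean 1926 FPKM). The endothelial list, of interest because endothelial cells are rich in Klf2, summed over 8 genes to 2.08 to 2.36 FPKM in control and 1.7 to 1.86 FPKM in RCE. Most of that was Emcn, the only 1 of the 8 with a mean of at least 1 FPKM. Emcn had group means of 1.76 and 1.43 FPKM and was lower in the limma test described below (adjusted p = 0.0257). The vascular cadherin Cdh5 was close to 0, with group means of 0.0547 and 0.0263 FPKM. The 5 pluripotency markers, of interest because Klf4 is a reprogramming factor, summed to 0.08 to 0.33 FPKM in control and 0.04 to 0.39 FPKM in RCE. Replicate 1 of both groups stood apart from replicates 2 and 3 on a principal component with 36.5% of the variance, while the groups separated on one with 58.1%. For Klf2, Klf3, Klf4, Klf5, Klf7, Klf9 and Sp2, a result without both replicate 1 libraries is also given below.

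The start regions of members that fell with the extract are shown here so that their letters can be read beside the values that follow. The RefSeq table (GRCm38.p6) held a start for 8 of the 10 members, not for Klf10 and Klf5. The sequences are the 250 bases before the start, 5′ to 3′ on the gene's strand. Capitals mark every match, on either strand, to the CCAAT box, to the GC box written GGGCGG and to the CACCC element. Marked in the same way are ACGTG, which is part of the E-box palindrome CACGTG but can stand outside it, and TGACG. Searched as well were TATAAA, the CArG box of serum response factor and the MEF2 site, none of which had a match in these 3 windows. ACGTG can overlap TGACG and CACGTG.
Klf13 (chr7:63938916-63939165, minus strand): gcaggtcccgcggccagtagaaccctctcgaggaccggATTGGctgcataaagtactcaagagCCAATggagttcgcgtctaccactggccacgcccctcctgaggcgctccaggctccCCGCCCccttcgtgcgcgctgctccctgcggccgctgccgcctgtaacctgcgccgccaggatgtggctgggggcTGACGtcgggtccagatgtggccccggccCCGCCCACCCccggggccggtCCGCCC
Klf9 (chr19:23140976-23141225, plus strand): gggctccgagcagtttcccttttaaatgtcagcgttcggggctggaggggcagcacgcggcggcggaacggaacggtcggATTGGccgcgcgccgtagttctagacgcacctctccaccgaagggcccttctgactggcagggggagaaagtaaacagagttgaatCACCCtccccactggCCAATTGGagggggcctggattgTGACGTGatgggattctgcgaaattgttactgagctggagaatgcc
Klf4 (chr4:55532476-55532725, minus strand): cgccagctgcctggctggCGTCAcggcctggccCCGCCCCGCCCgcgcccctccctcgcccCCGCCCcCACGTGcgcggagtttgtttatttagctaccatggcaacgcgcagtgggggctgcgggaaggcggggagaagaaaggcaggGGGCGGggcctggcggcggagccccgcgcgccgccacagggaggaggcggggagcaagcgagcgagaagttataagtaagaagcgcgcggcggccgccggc

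Each of these 3 windows held 1 match to TGACG, the short form of the cyclic AMP response element, which 27.5% of 10987 start regions of kept genes held. The full element TGACGTCA, held by 2.6% of start regions, had no match in them. Klf4 had 4 matches to the GC box (GGGCGG), of which 2 overlapped, and a CACGTG palindrome. Klf13 had 3 GC boxes and 2 CCAAT boxes. Klf9 had no GC box and 3 matches to CCAAT, of which 2 overlapped on opposite strands within CCAATTGG. The pattern TGANTCA allows any middle base and is wider than the AP-1 element, which has C or G there. Klf9 had 1 match to this pattern, with A in the middle, and 4.2% of start regions held a match. The Smad element GTCTAGAC (0.2% of start regions) and the steroid receptor core ACANNNTGT (3.3%) had no match in the windows of all 8 members. GC boxes were found in 59.9%, CCAAT in 35.1%, CACCC in 57.3%, ACGTG in 22.2%, CACGTG in 8.6%, TATAAA in 6.1% and the CArG box in 1.2% of start regions. Klf2 and Klf15, which did not pass the test below, also held TGACG. A match is a description of letters and no evidence of binding.

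With the extract 4 of the 10 factors fell and none rose. The RCE mean was 0.596 of the control mean for Klf10, 0.808 for Klf13, 0.824 for Klf4 and 0.842 for Klf9. By limma, with p adjusted by Benjamini-Hochberg over 10870 genes and a threshold of 0.05, 4 members were lower and 0 higher (4 and 0 before adjustment too), where 6.77% of all genes were lower and 17.6% higher. All 10 members passed the filter of a mean of at least 1 FPKM. The median change of the 10 was -0.02, against +0.08 over all kept genes, as RCE minus control on the log2(FPKM + 1) scale, which is used for every change below. All 3 RCE libraries lay below all 3 control libraries for 5 members (10.9% of all genes) and above them for 0 members (31.2% of all genes). After median-of-ratios scaling, which brought the median of all genes to 0.00, the members' counts were again 4 and 0, against 9.95% lower and 8.40% higher.

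**Figure D1:**
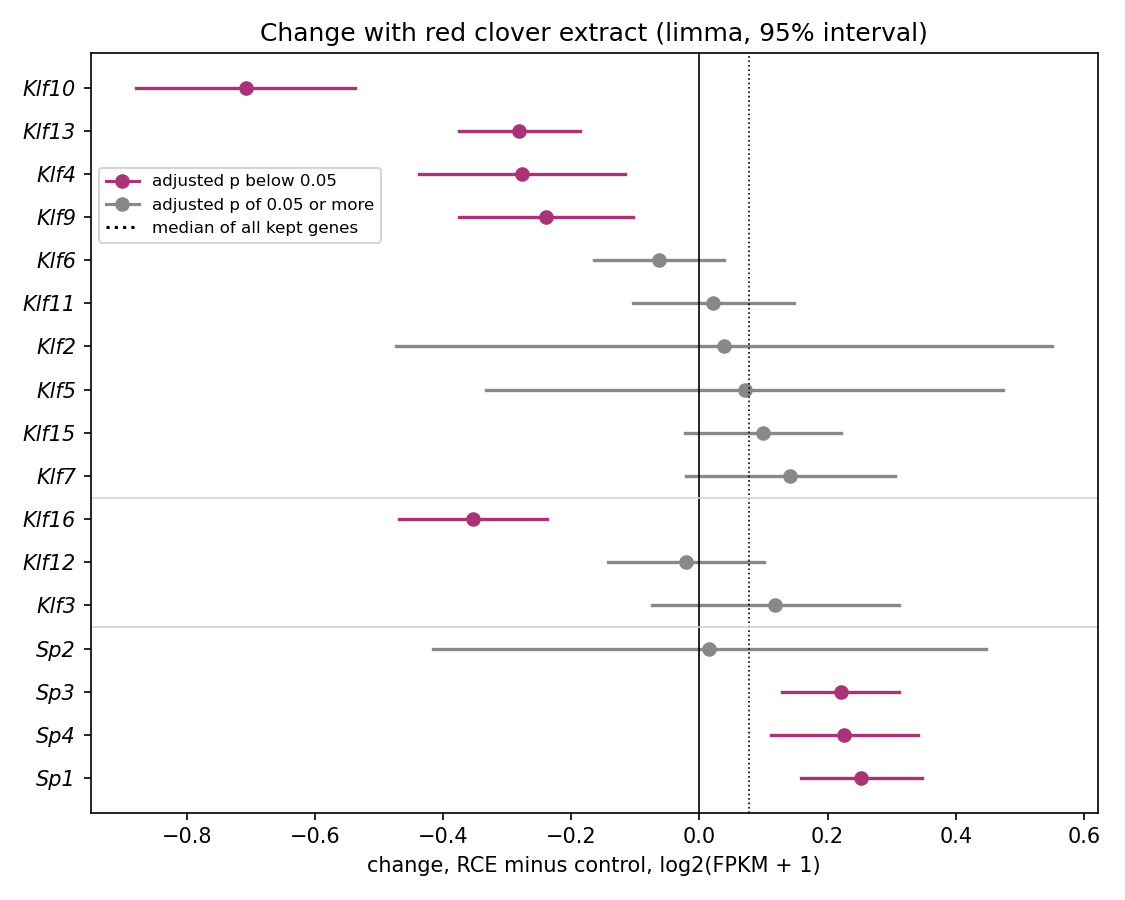
Change of each gene with red clover extract (x axis, RCE minus control on the log2(FPKM + 1) scale; dotted line, median of all kept genes; coloured where the adjusted p was below 0.05; points are limma estimates, bars 95% intervals, n = 3 per group) for the 10 factors, 3 other Klf genes and 4 Sp genes. Klf10 sits at -0.71, Klf13, Klf4 and Klf9 lie between -0.28 and -0.24, and the intervals of Klf2 and Klf5 are the widest of the 10.

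Among the Sin3-binding factors, Klf10 (ENSMUSG00000037465, chromosome 15, 38291463 to 38300706 on mm10) changed most of the 10. It is also known as TIEG1, a gene that TGF-beta induces early and that represses Smad7. In replicates 1 to 3 of control it stood at 23.9, 22.6 and 21.4 FPKM, and in those of RCE at 14.8, 12.8 and 12.9 FPKM, an order of replicates kept throughout. Every RCE library was lower than every control library, and replicate 1 was the highest of both groups. The means were 22.7 ± 1.25 and 13.5 ± 1.12 FPKM (SD, n = 3), a ratio of 0.596, and limma gave a change of -0.71 (SE 0.07, adjusted p = 0.00168). Within the same-numbered pairs the change was -0.66, -0.77 and -0.70. Under 18 alternatives it ran from -0.79 to -0.67 and passed the threshold in all 18.

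Klf13 (ENSMUSG00000052040, chromosome 7, 63886351 to 63938915), known as an activator of the chemokine gene Ccl5 in T cells, was at 11.7, 12.1 and 12.2 FPKM in control and 9.70, 9.84 and 9.60 FPKM with the extract. The groups did not overlap, and the RCE libraries lay close together. The means were 12.0 ± 0.2999 and 9.71 ± 0.120 FPKM (SD, n = 3, change -0.28 on the log2 scale with SE 0.04, adjusted p = 0.00515), and the call held under all 18 alternatives. Klf9 (ENSMUSG00000033863, chromosome 19, 23141226 to 23168134) is induced by glucocorticoids and thyroid hormone. Its level was 33.2, 30.9 and 31.0 FPKM in control and 28.2, 25.3 and 26.6 FPKM with the extract. The groups were again separate, with replicate 1 the highest in each. The means were 31.7 ± 1.32 and 26.7 ± 1.42 FPKM (SD, n = 3, change -0.24 on the log2 scale with SE 0.06, adjusted p = 0.0267, and 1.60e-04 with the replicate block). Klf9 lost its call when control 1, 2 or 3 was left out (adjusted p = 0.0590, 0.0711 and 0.0744) and when RCE 2 or 3 was (0.107 and 0.0886).

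Klf11 (ENSMUSG00000020653, chromosome 12, 24651274 to 24662789), or TIEG2, the closest relative of Klf10, did not pass the test. It was at 2.27, 2.44 and 2.40 FPKM in control and 2.21, 2.55 and 2.51 FPKM with the extract. The groups overlapped, and replicate 1 was the lowest of each. The change was +0.02 (95% interval -0.10 to 0.15, adjusted p = 0.802), and its interval does not reach that of Klf10 (-0.88 to -0.54). The difference between these 2 changes was not tested. The sign of Klf11 turned with the scaling, to -0.04 by median-of-ratios and -0.08 by quantile normalization, with no call in any alternative. About 412 to 613 fragments lay behind each of its values, counted on the longest annotated transcript.

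Klf16, outside the 10 but of the same Sin3-binding group, fell too. It was at 14.1, 15.2 and 14.1 FPKM in control and 11.4, 10.8 and 11.0 FPKM with the extract (change -0.35 on the log2 scale with SE 0.05, adjusted p = 0.00457, past the threshold in 18 of 18 alternatives). The remaining gene of that group, Klf14, was listed at 0 in all 6 libraries.

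Of the activators, only Klf4 passed the threshold. Klf4 (ENSMUSG00000003032, chromosome 4, 55527143 to 55532466), a reprogramming factor that also holds cells in growth arrest, was the most abundant member in control. Its level was 118, 108 and 111 FPKM in control and 99.9, 89.6 and 87.8 FPKM with the extract. Every RCE library lay below every control library. The means were 112 ± 5.09 and 92.4 ± 6.53 FPKM (SD, n = 3, change -0.28 on the log2 scale with SE 0.07, adjusted p = 0.0289, and 1.25e-04 with the replicate block). Its call ended with quantile normalization (adjusted p = 0.0543) and when control 1, 2 or 3 (0.0649, 0.0654 and 0.0892) or RCE 2 or 3 (0.114 and 0.101) was left out. Without both replicate 1 libraries, Klf4 (adjusted p = 2.95e-04) and Klf9 (9.46e-04) were past the threshold.

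Klf6 (ENSMUSG00000000078, chromosome 13, 5861482 to 5870394), induced by wounding and an activator of TGF-beta pathway genes, was nearly as abundant. It was at 99.4, 104 and 103 FPKM in control and 97.3, 97.2 and 98.4 FPKM with the extract. The groups did not overlap, and the change of -0.06 (SE 0.04, 95% interval -0.17 to 0.04) did not pass (adjusted p = 0.327, and 0.0593 with the replicate block). It passed with array weights (-0.08, adjusted p = 0.0428) and with the block and GC correction together (-0.16, adjusted p = 0.00149).

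Klf2 (ENSMUSG00000055148, chromosome 8, 72319033 to 72321656), which keeps endothelial cells and T cells quiescent, varied more between replicate numbers than between groups. It was at 47.7, 34.6 and 31.7 FPKM in control and 50.9, 32.8 and 34.0 FPKM with the extract. Replicate 1 was the highest of each group, 1.44 times the mean of the other 2 in control and 1.52 times with the extract. The change with the extract was +0.04 (SE 0.21, 95% interval -0.47 to 0.55, adjusted p = 0.920). With the replicate block, the interval narrowed to -0.05 to 0.12 (adjusted p = 0.389). Leaving out RCE replicate 1 gave -0.16, leaving out control replicate 1 gave +0.21 and leaving out both gave +0.01, none past the threshold.

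The start region of Klf2 holds the only MEF2 site found among the 8 members' windows, a match that 0.3% of start regions held. MEF2 factors are the known link from the kinase ERK5 (Mapk7) to Klf2. The stretch was chosen after its values were seen, and the site is in capitals.
Klf2 (chr8:72318934-72318963, plus strand): tataccgcggCTAAATTTAGgctgagcccg

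Mef2a itself fell with the extract, from 54.5 ± 3.61 to 43.8 ± 2.80 FPKM (SD, n = 3, change -0.31 on the log2 scale, adjusted p = 0.0233), while Mapk7 was at +0.07 (adjusted p = 0.781). Mef2d, at 29.4 and 26.4 FPKM, overlapped between groups and did not pass (-0.15, adjusted p = 0.461, and 0.00162 with the replicate block). Mef2c was under the filter at 0.564 and 0.714 FPKM, higher in every RCE library than in any control library. The call of Mef2a ended with quantile normalization (adjusted p = 0.0637) and when control 2 or 3 (0.0654 and 0.0546) or RCE 2 or 3 (0.0978 and 0.0854) was left out.

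Klf5 (ENSMUSG00000005148, chromosome 14, 99298691 to 99315036), which promotes proliferation of epithelial cells and takes part in fat cell differentiation, showed the same split by number at a low level. It was at 3.33, 2.27 and 2.66 FPKM in control and 3.96, 2.54 and 2.43 FPKM with the extract. Replicate 1 stood 1.35 and 1.59 times above the mean of the others in control and RCE. The change with the extract was +0.07 (95% interval -0.33 to 0.47, adjusted p = 0.800), and it ran from -0.10 to 0.18 over 17 alternatives with none past the threshold (+0.01 without both replicate 1 libraries). On the log2 scale replicate 1 of Klf2 exceeded the mean of replicates 2 and 3 by 0.52 in control and 0.59 with RCE. Over all kept genes 1.51% were at least 0.4 higher in replicate 1 of both groups, and the median size of this difference was 0.115 in control and 0.124 with the extract. Klf2 met this bound of 0.4, and Klf5, at 0.32 in control and 0.51 with RCE, did not. What a replicate number stands for is not given in the sources used here.

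**Figure D2:**
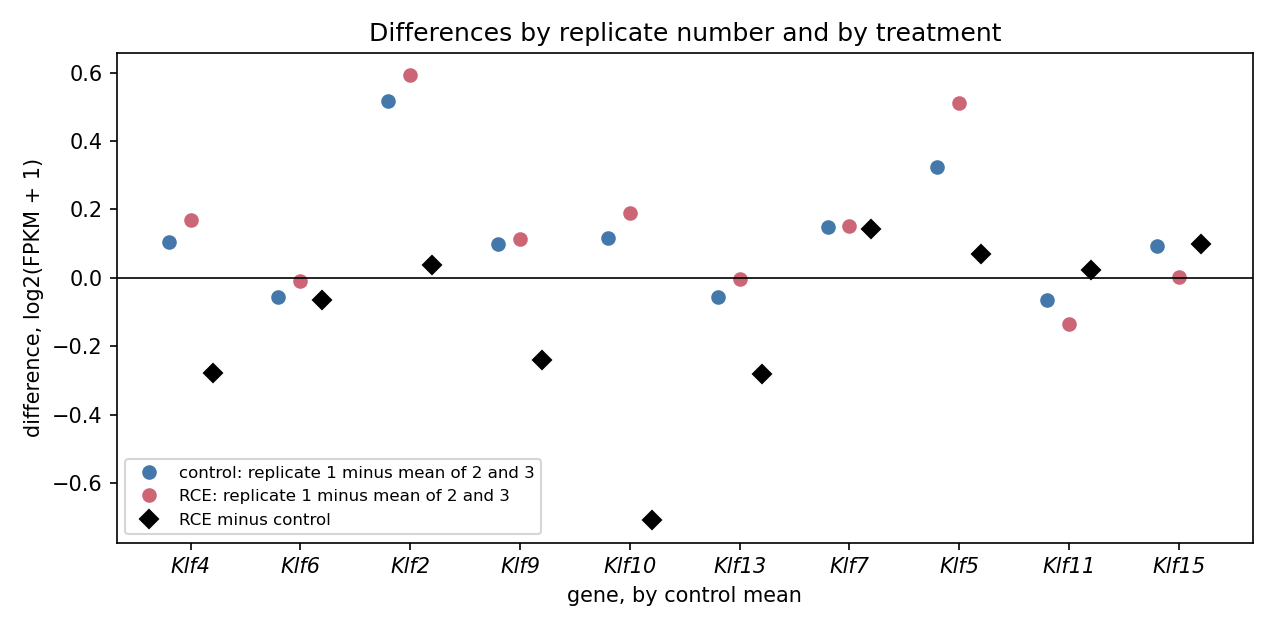
Difference of replicate 1 from the mean of replicates 2 and 3 within control and within RCE (circles) and difference between the groups (diamonds), on the log2(FPKM + 1) scale, for the 10 factors in order of control level. For Klf2 and Klf5 the circles lie at 0.32 to 0.59 with the diamond near 0, and for Klf10 the diamond lies at -0.71 with circles at 0.12 and 0.19.

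Klf7 (ENSMUSG00000025959, chromosome 1, 64029447 to 64122282), known for axon growth in neurons, was at 12.1, 10.6 and 11.1 FPKM in control and 13.5, 12.1 and 12.0 FPKM with the extract. The groups overlapped, but each RCE library was above the control library of the same number, by 0.14, 0.18 and 0.11. The change of +0.14 (SE 0.07, 95% interval -0.02 to 0.31) did not pass without a block (adjusted p = 0.180). It passed with the replicate block (adjusted p = 0.00352), which called 46.6% of all genes higher and 15.9% lower, and without both replicate 1 libraries (adjusted p = 0.0134). The call was lost when GC correction was added to the block (+0.05, adjusted p = 0.179), and with median-of-ratios scaling and no block the change was +0.06 (adjusted p = 0.650). Exons of 2 noncoding genes lie on the opposite strand of Klf7, and whether counting used strand was not given in the sources used here.

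Klf15 (ENSMUSG00000030087, chromosome 6, 90462576 to 90475238), a glucocorticoid-induced regulator of amino acid and glucose metabolism, was the lowest of the 10. It was at 2.01, 1.90 and 1.74 FPKM in control and 2.09, 1.99 and 2.19 FPKM with the extract. The groups overlapped only through control replicate 1 and RCE replicate 2, and the change was +0.10 (SE 0.05, 95% interval -0.02 to 0.22, adjusted p = 0.203, and 0.105 with the replicate block). About 213 to 305 fragments lay behind each value, counted on the longest annotated transcript. Klf9 and Klf15, both known as glucocorticoid targets, thus had changes of unlike sign, and their difference was not tested. With quantile normalization Klf15 was at -0.01.

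**Figure D3:**
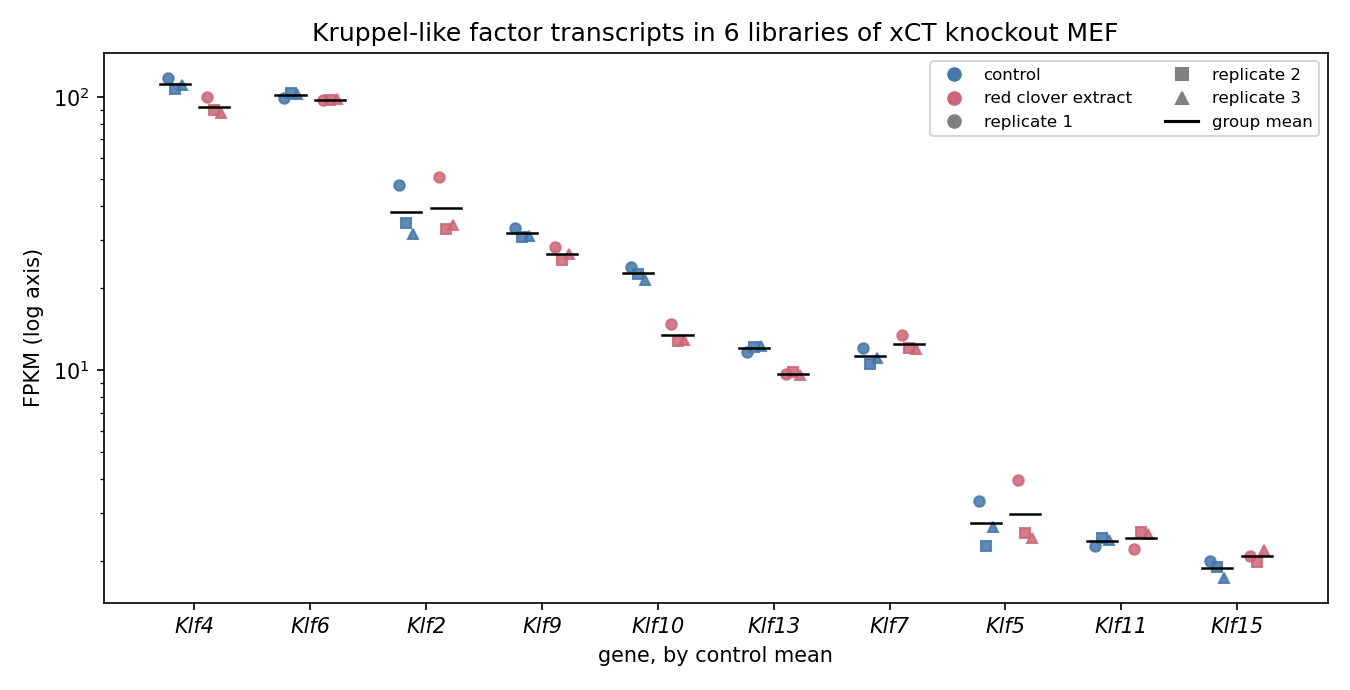
FPKM on a log axis for the 10 factors in each of 6 libraries, in order of control mean; blue is control, red is red clover extract, symbols give the replicate number and bars the group mean (n = 3). Klf4 and Klf6 lie near 100 FPKM and Klf5, Klf11 and Klf15 between 1.74 and 3.96 FPKM.

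Ordered by control mean, the levels ran Klf4 (112 FPKM), Klf6 (102), Klf2 (38.0), Klf9 (31.7), Klf10 (22.7), Klf13 (12.0), Klf7 (11.2), Klf5 (2.75), Klf11 (2.37) and Klf15 (1.88). The ranges over libraries overlapped between Klf2 and Klf9, Klf13 and Klf7, and Klf5 and Klf11, and were separate between the other neighbours. With the extract Klf6 (97.7 FPKM) and Klf4 (92.4 FPKM) changed places with overlapping ranges. Klf7 (12.5 FPKM) stood above Klf13 (9.71 FPKM) in every RCE library, whereas in control Klf13 was higher in replicates 2 and 3. Klf10 at 13.5 FPKM with the extract overlapped with Klf7.

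Klf4 and Klf6 together made up 53.3, 55.8 and 56.7% of the summed FPKM of all 17 Klf genes in control and 52.2, 55.6 and 55.4% with the extract. The sum itself was 407, 379 and 378 FPKM in control and 377, 336 and 336 FPKM with the extract, with control replicate 3 and RCE replicate 1 nearly level. Within that sum the share of Klf10 went from 5.84 ± 0.152 to 3.85 ± 0.058% and that of Klf7 from 2.90 ± 0.096 to 3.57 ± 0.016% (SD, n = 3). Shares have a fixed total, so a fall of Klf4 raises those of other members. In bulk RNA, fewer cells of a kind and less RNA per cell cannot be told apart.

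Of the other Klf genes, Klf3, a CtBP-binding repressor, was the fourth most abundant of all 17 in control. It was at 37.7, 32.9 and 33.7 FPKM in control and 41.4, 36.8 and 35.2 FPKM with the extract (change 0.12 on the log2 scale, adjusted p = 0.331, and 0.00647 with the replicate block). Klf3 also passed without both replicate 1 libraries (adjusted p = 0.0274), and not with the block and GC correction together (+0.03, adjusted p = 0.428). Klf12 was at 1.52 and 1.48 FPKM on average (adjusted p = 0.809). Klf8, the third CtBP binder, had too low a mean for the test, at 0.177, 0.155 and 0.136 FPKM in control and 0.315, 0.257 and 0.281 FPKM with the extract. All 3 of its RCE values were above the control values. Klf1 and Klf17 were at most at 0.304 and 0.015 FPKM.

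Of 9 Sp factors, which bind the same GC-rich sites, 4 were kept, and Sp1, Sp3 and Sp4 rose in limma while 0 fell (3 and 0 before adjustment), where 17.6% of all genes were higher. Their median was 0.22. After median-of-ratios scaling 1 of the 4 was higher and after GC correction 0 were (1 before adjustment). Sp1, the broadly expressed activator, was at 13.5, 13.1 and 12.9 FPKM in control and 16.1, 15.8 and 15.7 FPKM with the extract (change 0.25 on the log2 scale with SE 0.04, adjusted p = 0.00698). Sp3 went from 20.5 ± 0.370 to 24.1 ± 0.033 FPKM (SD, n = 3, change 0.22 on the log2 scale, adjusted p = 0.00988). Sp4 went from 1.47 to 1.89 FPKM (0.23, adjusted p = 0.0190). Sp2 split by replicate number like Klf2 (6.84, 4.67 and 5.09 FPKM in control, 7.26, 5.03 and 4.62 FPKM with RCE), with a change of +0.02 (adjusted p = 0.962), or -0.01 without both replicate 1 libraries. Sp6 reached at most 0.443 FPKM, Sp7 0.105 and Sp9 0.022, and Sp5 and Sp8 were listed at 0. GC correction without the block ended the calls of Sp1 (adjusted p = 0.107), Sp3 (0.167) and Sp4 (0.303), and median-of-ratios scaling those of Sp3 (0.0628) and Sp4 (0.0726). With the block and GC correction together Sp1 (+0.16, adjusted p = 0.00151), Sp3 (+0.12, 0.00539) and Sp4 (+0.12, 0.0447) passed. Sp3 lost its call when RCE 2 was left out (0.0574). Sp4 lost it with quantile normalization (0.218) and when control 2 or 3 (0.0640 and 0.0677) or RCE 2 or 3 (0.0779 and 0.0507) was left out.

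Of 20 kept genes known to act upstream of KLF transcription, 4 were lower and 0 higher, against 6.77% and 17.6% of all genes (5 and 1 before adjustment), with a median of +0.03. Blocked by replicate, 9 were lower and 6 higher, against 15.9% and 46.6%. After median-of-ratios scaling 5 were lower and 0 higher, against 9.95% and 8.40%. After GC correction 6 were lower and 0 higher, against 1185 and 893 of all 10870 genes. Those past the threshold without the block included Arntl (BMAL1), the clock activator under which Klf9, Klf10 and Klf15 cycle, which went from 24.4 ± 0.717 to 16.96 ± 1.41 FPKM (SD, n = 3, change -0.50 on the log2 scale, adjusted p = 0.00419, 18 of 18 alternatives past the threshold). The glucocorticoid receptor Nr3c1, inducer of Klf9 and Klf15, went from 31.7 ± 1.34 to 26.5 ± 0.897 FPKM (-0.25, adjusted p = 0.0168). Smad3, which carries the TGF-beta signal to Klf10, went from 17.3 ± 0.512 to 14.9 ± 0.173 FPKM (-0.19, adjusted p = 0.0189). Smad2 (+0.10, adjusted p = 0.177, and 0.0233 with the replicate block) and Smad4 (+0.11, 0.147 and 0.00628) were higher in every RCE library than in any control library. Changes of Tgfb3 (-0.18, 0.0599 and 9.52e-04) and Tgfbr2 (-0.12, 0.181 and 0.00647) were negative. Those of Tgfb2 (+0.02, 0.873 and 0.605) and Tgfbr1 (+0.03, 0.829 and 0.420) were positive. The ligand Tgfb1 was at 74.7, 54.0 and 50.9 FPKM in control and 54.6, 40.6 and 37.5 FPKM with the extract, lower in each pair, and passed with the replicate block (adjusted p = 6.00e-06) but not without it (-0.43, adjusted p = 0.153). Nr3c1 lost its call when control 2, control 3 or RCE 2 was left out (0.0699, 0.0675 and 0.0749), and Smad3 when control 2, RCE 2 or RCE 3 was (0.0795, 0.0820 and 0.0793).

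Among 17 cofactors and genes of KLF protein stability, 2 were higher and 0 lower, against 17.6% and 6.77% of all genes (5 and 0 before adjustment), with a median of +0.12. Blocked by replicate, 9 were higher and 3 lower, against 46.6% and 15.9%, so neither count stood far from that over all genes. After median-of-ratios scaling 0 were higher and 1 lower, against 8.40% and 9.95%. After GC correction 0 were higher and 2 lower, against 893 and 1185 of all 10870 genes. Higher without the block were the acetyltransferase Kat2b (PCAF), from 2.57 to 3.09 FPKM (0.20, adjusted p = 0.0224), and Fbxo32, the ubiquitin ligase subunit that targets KLF4, from 2.08 to 2.46 FPKM (0.17, adjusted p = 0.0420). Kat2b lost its call under median-of-ratios scaling (adjusted p = 0.0660), quantile normalization (0.187) and GC correction (0.0906), and when control 1 or 3 (0.0534 and 0.0789) or RCE 2 or 3 (0.0978 and 0.0786) was left out. With the block and GC correction together Kat2b passed (+0.11, adjusted p = 0.032). Fbxo32 passed in 6 of 17 alternatives only. It failed under the same 3 scalings (0.133, 0.338 and 0.209), with GC correction and the block together (0.133), with no filter (0.0676) and when any 1 library was left out (0.0605 to 0.138). The corepressors Sin3a (+0.13, adjusted p = 0.156, and 0.00716 when blocked by replicate), Sin3b (+0.05, adjusted p = 0.679), Ctbp1 (+0.03, adjusted p = 0.689) and Ctbp2 (-0.10, adjusted p = 0.144, and 0.0159 when blocked) did not pass without the block.

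Of 22 kept genes reported as targets of a member, 2 were higher and 2 lower, against 17.6% and 6.77% of all genes (5 and 3 before adjustment), with a median of +0.08. Blocked by replicate, 11 were higher and 5 lower, against 46.6% and 15.9%, so the counts do not set the list apart from all genes. After median-of-ratios scaling 0 were higher and 3 lower, against 8.40% and 9.95%. After GC correction 2 were higher and 4 lower, against 893 and 1185 of all 10870 genes. The most changed was Thbd, thrombomodulin, known as a target of Klf2 and Klf4. It was at 87.9, 104 and 92.1 FPKM in control and 43.5, 46.9 and 49.9 FPKM with the extract, with no overlap (change -1.002 on the log2 scale with SE 0.08, adjusted p = 8.71e-04, 18 of 18 alternatives past the threshold). The urokinase gene Plau, a target of Klf6, went from 23.3 ± 2.4995 to 16.2 ± 1.99 FPKM (-0.51, adjusted p = 0.0220). Plau lost its call when control 2, control 3 or RCE 2 was left out (0.0823, 0.0828 and 0.0561). The cell cycle inhibitor Cdkn2b (+0.22, adjusted p = 0.0122) and the cyclin Ccne1 (+0.26, adjusted p = 0.0124) were higher. Median-of-ratios scaling ended both calls (0.0660 and 0.0698). Cdkn2b also failed when control 2, control 3, RCE 2 or RCE 3 was left out (0.0534, 0.0573, 0.0691 and 0.0591). Ccne1 failed with quantile normalization (0.0558) and when control 2, control 3 or RCE 2 was left out (0.0548, 0.0561 and 0.0623). Smad7, which Klf10 represses, was at -0.18 (adjusted p = 0.0766, and 0.00110 when blocked by replicate), Cdkn1a, a classic Klf4 and Klf6 target, at +0.09 (adjusted p = 0.260, and 0.0229 when blocked), and the Klf13 target Ccl5 was under the filter at 0.210 and 0.147 FPKM.

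Summed levels of several marker lists differed between the groups, while those of the epithelial list overlapped. A sum is led by its most abundant genes, so limma calls are given too. Over all genes 6.77% were lower and 17.6% higher. The 12 fibroblast markers summed to 6148 to 6551 FPKM in control and 5588 to 5968 FPKM with the extract, and 2 were called lower and 0 higher. The 6 fat cell markers, of which 3 had a mean of at least 1 FPKM, summed to 20.9 to 21.9 FPKM in control and 31.8 to 34.9 FPKM with the extract. Of these 3, 2 were called higher and 0 lower. Fabp4 (from 3.79 to 11.6 FPKM, adjusted p = 0.00269) and Pparg (from 14.5 to 18.7 FPKM, adjusted p = 0.00651) made up most of that rise, while Adipoq and Plin1 had means of at most 0.014 FPKM and Cidec was listed at 0. The 6 muscle markers summed to 191 to 208 and 210 to 229 FPKM in control and RCE, most of it Cnn1, with Myod1 listed at 0. By limma Cnn1 (from 144 to 154 FPKM, adjusted p = 0.222) and Myh11 (from 12.8 to 11.5 FPKM, 0.190) did not pass. Of the 3 kept, only Des was called (from 40.1 to 53.1 FPKM, adjusted p = 0.0203). After median-of-ratios scaling 0 of the 3 were. The sums over 5 neural markers were 10.1 to 11.0 and 11.8 to 12.7 FPKM, over 7 blood cell markers 6.54 to 7.08 and 5.75 to 6.53 FPKM, and over 8 epithelial markers 2.2 to 3.11 and 1.57 to 2.63 FPKM. The 1 neural marker kept, Tubb3, was called higher. Of the 2 blood cell markers and 1 epithelial marker kept, 0 were called. Klf4, Klf5, Klf9 and Klf15 are known in fat cell differentiation, and the part of these markers in the members' changes was not tested.

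**Figure D4:**
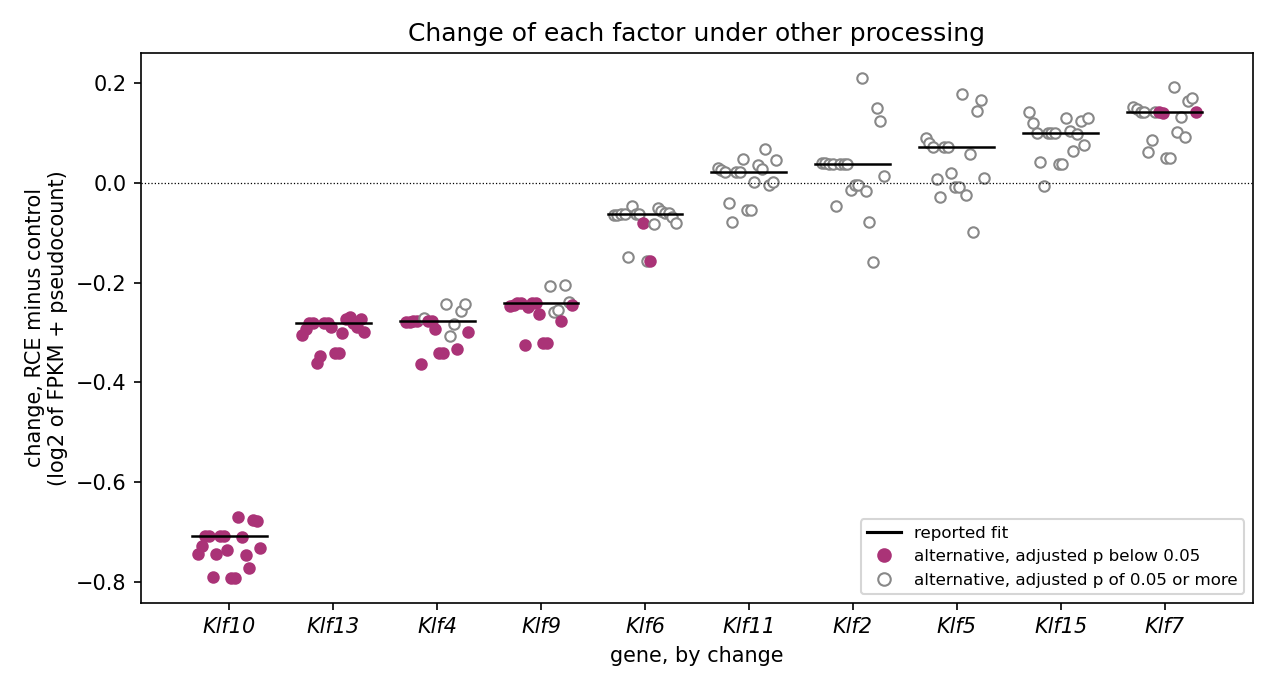
Change of each factor, RCE minus control, in the reported fit (bar) and under each alternative (circles, filled where the adjusted p was below 0.05); the y axis is the log2 scale of FPKM plus the pseudocount used. All circles of Klf10 and Klf13 are filled and below 0, those of Klf4 and Klf9 are below 0 with some open, and those of Klf2, Klf5, Klf11 and Klf15 lie on both sides of 0.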

How the data were processed

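RNA of 6 samples, extracted with TRIzol, was made into TruSeq Stranded mRNA libraries, per the labels' protocols. The deposited values are FPKM, per the submitters' processing notes and the values themselves. The notes name, with no role, STAR 2.5.4, Cuffdiff 2.2.1, Cufflinks and the mm10 build. The authors' annotation, filters and strand setting are not given in the sources used here. Because FPKM are relative, a gene that takes more of a library lowers the others.

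All Ensembl identifiers matched GENCODE M21 (mm10), which gave coordinates and transcript GC. The test was limma 3.58.1, run in R 4.3.3 on log2 of FPKM plus a pseudocount of 1, trend on, 2-sided, with a Benjamini-Hochberg threshold of 0.05 over 10870 genes averaging 1 FPKM or more. The fit was tested on simulated data. Depth was read as the fragment number at which low FPKM of single-transcript genes came out whole within 0.1 fragment. For a symbol on more than 1 row (24 symbols) the highest row was used.

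Deviations from group means correlated at 0.92, 0.62 and 0.68 in pairs numbered 1, 2 and 3, and the replicate block took numbers as pairs. The crossed pairs correlated more, control replicate 2 with RCE replicate 3 at 0.77 and control replicate 3 with RCE replicate 2 at 0.72. These values set replicate 1 apart but do not favour pairing 2 and 3 by number. Each p-value with the replicate block rests on that pairing.

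The members, lists and tests were chosen with earlier results of these data known. Named were all members, the other Klf and Sp genes and up to 4 genes past the threshold per list. Genes that did not pass or were under the filter, but are known partners of a member, were named too, picked with their values known. They were Tgfb1, Tgfb2, Tgfb3, Tgfbr1, Tgfbr2, Smad2, Smad4, Mapk7, Mef2c, Mef2d, Sin3a, Sin3b, Ctbp1, Ctbp2, Smad7, Cdkn1a and Ccl5. Alternatives were other pseudocounts, filters, scalings, no trend, replicate block, array weights, GC correction and left-out libraries.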

Additional observations from a re-analysis of the deposited data

How the results depend on the processing

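The count of members called lower was 4, ran from 2 to 4 when 1 library was left out, with Klf10 and Klf13 past the threshold in each case, was 4 with the replicate block, 3 with quantile normalization and 5 with array weights or with the block and GC correction together. The count called higher, 0, became 1 (Klf7) with the replicate block, array weights, or both replicate 1 libraries left out. Over all genes 2646 calls became 1352 with a minimum mean of 5 FPKM, 1642 with quantile normalization, 6790 with the replicate block (5698 with GC correction too), 5781 with array weights, 5844 without both replicate 1 libraries, and 1079 to 2774 with 1 library left out. The higher share of calls was 72.2%, but 45.8% after median-of-ratios scaling, 47.8% after quantile normalization and 43.0% after GC correction. The cofactor, upstream and target lists had 10 calls, against 42 with the replicate block, 27 with GC correction too, 33 with array weights, 34 without both replicate 1 libraries, and 2 to 12 with 1 library left out. Without the block these lists had 9 calls after median-of-ratios scaling, 7 after quantile normalization and 14 after GC correction. Klf4's share of the Klf sum in control, 28.9%, was 33.3% over the 10 members alone. A minimum mean of 5 FPKM removed Klf5, Klf11 and Klf15. Causes were not tested, apart from fewer genes or libraries by construction. About 213 to 613 fragments lay behind each value of Klf5, Klf11 and Klf15, and the part of depth in their spread was not tested. The SE of the change was 0.17 for Klf5, 0.05 for Klf11 and 0.05 for Klf15, against 0.07 for Klf4 and 0.21 for Klf2. On the log2(FPKM + 1) scale the pseudocount shrinks changes and SE of low genes more, so these SE do not compare precision across levels. With a pseudocount of 0.1 the change of Klf15 was +0.14 against +0.10, and that of Klf4 stayed at -0.28.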
